A study of Homo sapiens with 15 samples.

Results

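BB2-162 is one of 3 oligooxopiperazines, given in the series as transcriptional inhibitors, that were tested in A549 cells, a human lung adenocarcinoma line. Its effect in hypoxia was read from the 3 arrays of hypoxic cells given BB2-162 against the 3 arrays of hypoxic cells given vehicle, 6 of the 15 arrays of the series. All 18377 genes with a probe set of 1 gene symbol were considered, of which 16005 had enough signal to be tested. Cells received 10 µM BB2-162 in medium with 0.1% DMSO, or medium with 0.1% DMSO alone, for 6 h; hypoxia was then induced in a gas-generating pouch and lasted 42 h. The other groups, also of 3 arrays each, were hypoxic cells given 10 µM BB2-125 or 10 µM BB2-282 on the same schedule and a normoxic vehicle group; cells given a compound in normoxia were not analysed here, so an effect of BB2-162 that needs hypoxia cannot be told apart from one that does not. RNA came from whole wells, in which fewer cells of a type and less RNA per cell cannot be told apart. The labels call the replicates biological and say no more, so the p-values below measure only the spread between these samples. For each gene that spread was pooled within groups over all 15 arrays. The BB2-162 arrays deviated more from their group mean than the arrays of any other group.

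Hypoxia-inducible factors (HIFs) are transcription factors built from an oxygen-regulated α subunit, such as HIF-1α (gene HIF1A) or HIF-2α (EPAS1), and the constitutive β subunit ARNT. In normal oxygen, prolyl hydroxylases of the EGLN family mark the α subunit for destruction through VHL, and the asparaginyl hydroxylase HIF1AN blocks its C-terminal activation domain. In hypoxia that domain recruits the coactivators p300 (EP300) and CBP (CREBBP), and genes of glycolysis, angiogenesis, matrix modification and survival are switched on; CITED2 and CITED4 compete for the same coactivator surface.

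The arrays had median intensities of 74.91 to 84.6 and no pair was identical. Log2 values of BB2-162 replicate 1 correlated with those of replicates 2 and 3 at a mean Pearson r of 0.9787 across genes, below the 0.9838 and 0.9843 of replicates 2 and 3 and the 0.9895 to 0.9947 of the arrays of other groups. Its root mean square deviation from its group mean was 0.221 log2 units, against 0.163 and 0.158 for replicates 2 and 3 and 0.094 to 0.149 elsewhere. Among called genes replicate 1 was most often the BB2-162 array nearest to the vehicle mean (3686 genes, 63.8%). The median change over genes called higher was 0.34 in replicate 1, 0.43 in replicate 2 and 0.47 in replicate 3; over genes called lower it was -0.42, -0.67 and -0.69. The fit that chose these genes includes replicate 1, which lay farthest from the vehicle mean in the called direction in 1100 of them. Counts of called genes in each group below, against the vehicle, are given with and without it.

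A gene was called where its Benjamini-Hochberg adjusted p in limma, over all 16005 genes, was below 0.05. BB2-162 changed 5780 genes (36.1%) against the hypoxic vehicle: 2511 were called higher (15.7%) and 3269 lower (20.4%). At least 2-fold changes were called for 612 genes (3.82%), 127 of them higher (0.794%) and 485 lower (3.03%). The arrays of both groups did not overlap in 6450 genes (40.3%), of which 4965 (31% of all) were also called. Without replicate 1 the fit called 7698 genes (48.1%), 3748 higher and 3950 lower; 5426 of the 5780 kept their call and direction, 354 lost it, 2272 were gained and 0 turned. Each of the 612 genes with a 2-fold change was called in the same direction without replicate 1. A limma fit of the 2 groups alone, whose spread comes from their own arrays, called 3494 genes, 1129 higher and 2365 lower. Some lists below had 0 members called in one direction against the vehicle in the limma fit of all 15 arrays as deposited. In these, 0 also passed an unadjusted limma p under 0.05 in that direction, except 1 C/D box small nucleolar RNA with lower signal. Unadjusted counts were not made for the other scalings, sample sets and fits.

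The balance of rises and falls depended on scaling and on signal level. Higher genes made up 43.4% of the calls on the deposited values, 28.2% after centring each array on its median (1451 higher, 3691 lower), 50.7% after quantile normalization (3069 higher, 2982 lower), 45.9% after centring on named probe sets alone and 48.7% without replicate 1. The median difference over all genes was 0.06, and it lay at 0.14 to 0.16 in the 4 dimmest of 10 equal classes of genes ordered by signal and at -0.14 to -0.12 in the 3 brightest. Quantile normalization brought these to between 0.04 and 0.12 and between -0.03 and 0. The part that this level-dependent shift plays in small differences was not tested, and the groups described below are therefore read against the counts over all genes and, where scaling alters a direction, with the alternative counts.

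**Figure D1:**
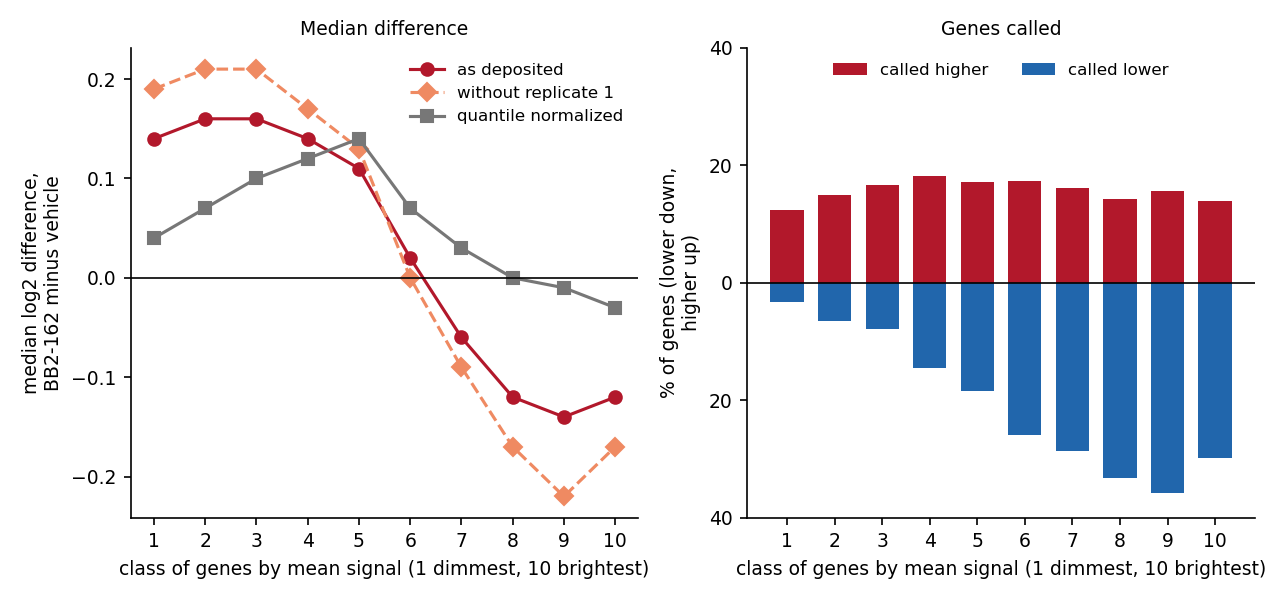
Left, the median log2 difference (BB2-162 minus hypoxic vehicle) in each of 10 equal classes of the 16005 tested genes, ordered by mean signal over the arrays, for the deposited values, without BB2-162 replicate 1 and after quantile normalization. Right, the percentage of genes of each class called higher (up) or lower (down); the share called lower runs from 3.25% in the dimmest class to 35.8% in class 9, while the share called higher stays between 12.4% and 18.1%.

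**Figure D2:**
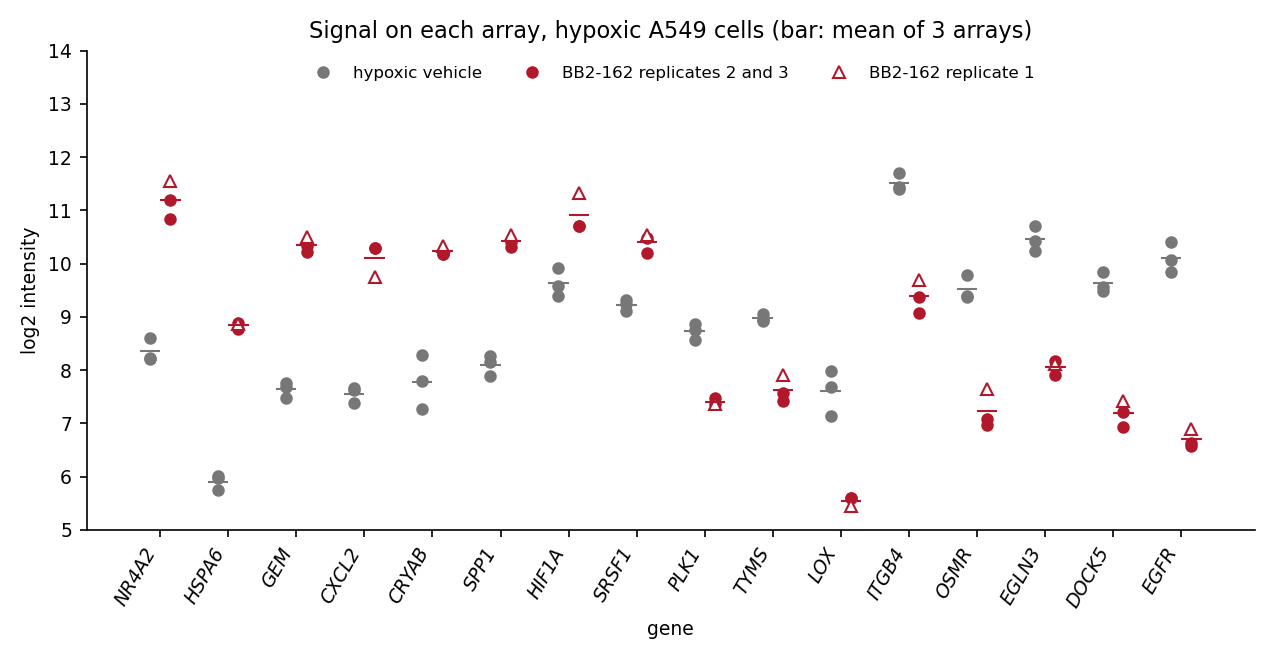
Log2 intensity on each hypoxic array for 16 genes: grey circles are the 3 vehicle arrays, filled red circles BB2-162 replicates 2 and 3, open triangles BB2-162 replicate 1, and bars the means of 3 arrays. In each of the genes shown the BB2-162 arrays do not overlap the vehicle arrays; HIF1A replicate 1 (11.33) stands above replicates 2 and 3 (10.71 and 10.70).

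Within the HIF system itself the α subunits moved in opposite directions and the coactivators fell. Of 10 tested HIF subunits and coactivators 3 were called higher and 3 lower (4 and 4 without replicate 1). HIF1A read 11.33, 10.71 and 10.70 log2 units in BB2-162 replicates 1 to 3 and 9.58, 9.92 and 9.40 in the vehicle arrays. It rose by 1.28 ± 0.15 (SE; adjusted p = 4.66e-06), and by 1.07 without replicate 1; its normoxic mean was 11.74. EPAS1 fell by 0.50 on the log2 scale (adjusted p = 0.0039), with 11.56 to 12.06 under BB2-162 and 12.18 to 12.43 under vehicle. CREBBP, encoding CBP, read 8.85, 8.08 and 8.64 against 9.40, 9.79 and 9.65 and fell by 1.09 ± 0.17 (adjusted p = 7.18e-05). EP300 read 8.24, 7.53 and 7.98 against 8.44, 8.94 and 8.59 and fell by 0.74 ± 0.19 (adjusted p = 0.00535). The competitors CITED2 and CITED4 rose by 0.73 ± 0.11 and 0.45 ± 0.10. ARNT had a difference of -0.15 with adjusted p = 0.27; without replicate 1 it was -0.28 (adjusted p = 0.0221), so that call rests on which arrays are included.

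Of 5 tested genes in the list of oxygen-sensing hydroxylases and VHL, EGLN3 and HIF1AN fell and VHL was called higher. EGLN3, a prolyl hydroxylase that HIF itself induces, read 8.12, 7.90 and 8.18 under BB2-162 and 10.43, 10.71 and 10.24 under vehicle and fell by 2.39 ± 0.12 (5.25-fold; adjusted p = 5.12e-10) to near its normoxic mean of 8.20. HIF1AN fell by 0.51 ± 0.13. The VHL difference of 0.30 (adjusted p = 0.0462) lost its call without replicate 1 (adjusted p = 0.128).

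Classical HIF targets did not move as a block. Among 22 glycolysis and glucose uptake genes 8 were called lower and 1 higher, with a median difference of -0.19; without replicate 1 there were 12 lower and 1 higher, and leaving out BB2-162 replicate 2, BB2-162 replicate 3 or vehicle replicate 2 left 5 lower in each case. PFKP, the platelet isoform of phosphofructokinase, read 10.16, 9.43 and 9.72 against 11.41, 11.54 and 11.25. It fell by 1.63 ± 0.15 (3.09-fold; adjusted p = 2.65e-07). The glycogen genes GBE1 (branching enzyme) and GYS1 (glycogen synthase) fell by 1.25 ± 0.13 and 0.98 ± 0.14. Outside this list, PYGL, liver glycogen phosphorylase, fell by 1.98 ± 0.11. ALDOC, an aldolase, went the other way and rose by 0.61 ± 0.14. The glucose transporter SLC2A1 had a difference of -0.21 (adjusted p = 0.126), with 12.98, 12.55 and 12.65 against 12.89, 12.97 and 12.95; replicate 1 lay above the vehicle arrays and replicates 2 and 3 below them, and without replicate 1 the difference was -0.34 (adjusted p = 0.00878).

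Of 33 HIF targets in signalling and survival 10 were called higher and 8 lower (10 and 9 without replicate 1). ANGPTL4, a secreted inhibitor of lipoprotein lipase, read 10.51, 10.03 and 9.81 against 11.52, 11.86 and 11.51 and fell by 1.51 ± 0.16. The mitophagy receptor BNIP3 fell by 0.64 ± 0.10. In contrast ANKRD37, a small ankyrin-repeat protein, read 9.27, 9.40 and 9.26 against 8.43, 8.11 and 8.27 and rose by 1.04 ± 0.13, further from its normoxic mean of 7.0. DDIT4, an inhibitor of mTORC1, rose by 0.63 ± 0.08. VEGFA, the angiogenic growth factor, read 11.52, 11.12 and 11.43 against 11.28, 11.54 and 11.43, and these arrays overlapped; the difference was -0.06 with a 95% interval from -0.29 to 0.18. For the chemokine receptor CXCR4 the difference was 0.13 with an interval from -0.15 to 0.41, and its arrays overlapped as well.

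**Figure D3:**
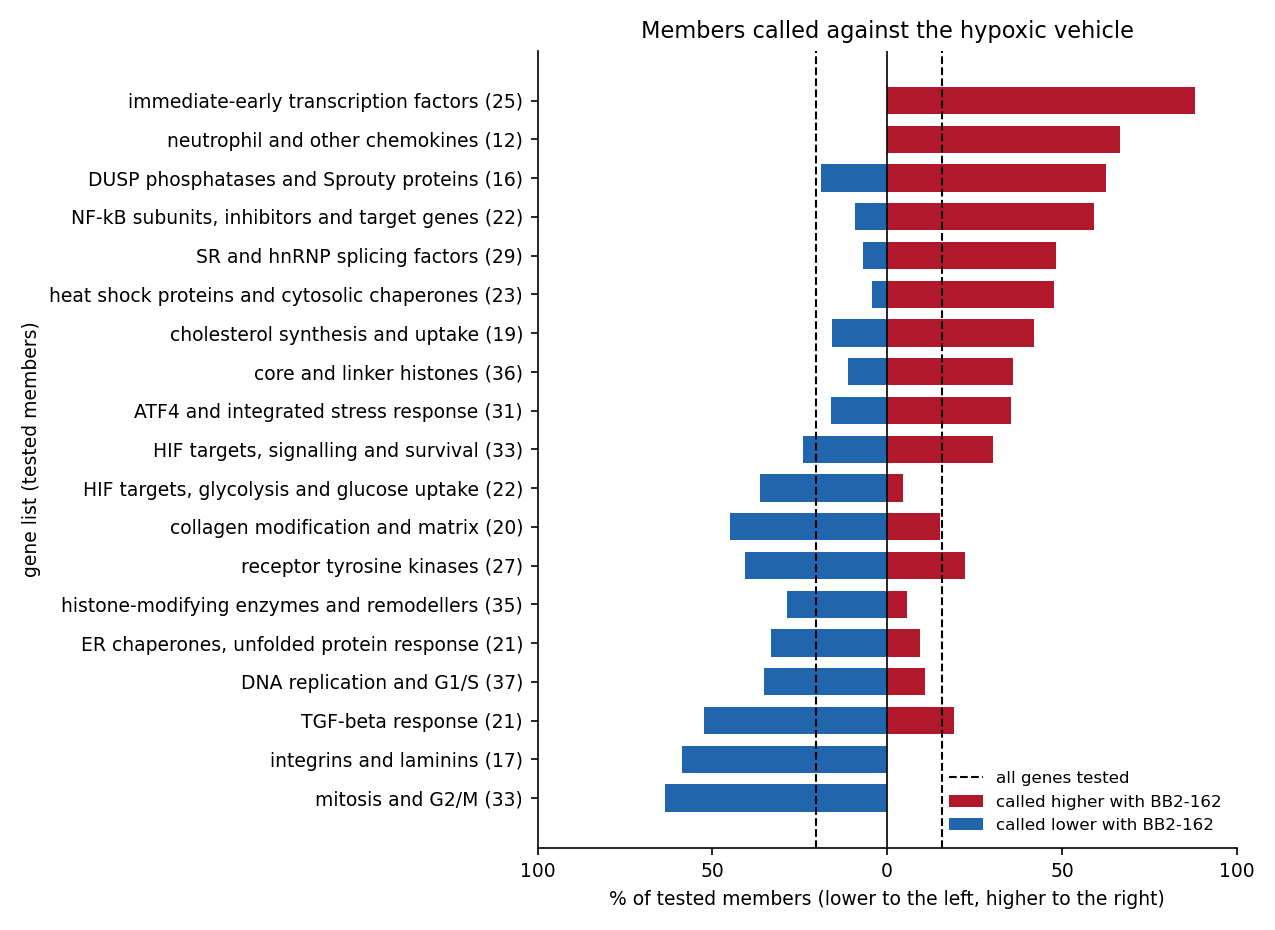
Percentage of the tested members of 19 gene lists called lower (blue, left) or higher (red, right) with BB2-162 against the hypoxic vehicle, with the number of tested members in parentheses; dashed lines mark all 16005 genes (20.4% lower, 15.7% higher). Of the lists shown, immediate-early transcription factors have the largest share called higher (22 of 25) and mitosis genes the largest share called lower (21 of 33).

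Matrix-modifying enzymes, growth factor receptors and adhesion molecules held many of the largest falls. In the list of collagen modification and matrix genes 9 of 20 were called lower and 3 higher (9 and 6 without replicate 1). The rises numbered 1 without BB2-162 replicate 2, vehicle replicate 1 or vehicle replicate 2 and after median centring, and 0 in a limma fit of the 2 groups alone. LOX, the lysyl oxidase that cross-links collagen, read 5.44, 5.60 and 5.59 under BB2-162 and 7.68, 7.99 and 7.14 under vehicle. It fell by 2.06 ± 0.16 (4.17-fold; adjusted p = 2.64e-08), to above its normoxic mean of 4.70. The related oxidase LOXL2 fell by 1.22 ± 0.11. All PLOD lysyl hydroxylases were called lower: PLOD2 read 11.17, 10.77 and 10.67 against 12.27, 12.44 and 12.07 and fell by 1.39 ± 0.12, PLOD3 fell by 1.08 ± 0.12, and PLOD1 by 0.71.

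Among 27 receptor tyrosine kinases 11 were called lower and 6 higher, and the rises were the less stable side: 8 without replicate 1, 1 after median centring and 4 after quantile normalization, and 1 to 3 when BB2-162 replicate 2, BB2-162 replicate 3, vehicle replicate 1 or vehicle replicate 2 was left out. EGFR, the EGF receptor, carried the largest fall of all 16005 genes. It read 6.90, 6.57 and 6.63 under BB2-162 and 9.85, 10.40 and 10.06 under vehicle and fell by 3.40 ± 0.17 (10.6-fold; adjusted p = 5.12e-10), and fell by 3.50 without replicate 1. All its BB2-162 arrays lay below the normoxic mean of 8.58. MET, the hepatocyte growth factor receptor, read 9.63, 8.81 and 9.17 against 10.58, 11.15 and 10.52 and fell by 1.55 ± 0.19. AXL and FGFR1 fell by 0.88 ± 0.14 and 0.80 ± 0.11.

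Of 6 tested ligands of the EGF receptor family, 3 rose and 1 fell (3 and 1 without replicate 1; 2 and 1 after median centring). EREG, encoding epiregulin, read 10.64, 9.79 and 9.87 against 8.11, 8.24 and 7.52 and rose by 2.15 ± 0.20 (4.42-fold; adjusted p = 3.25e-07; 1.87 without replicate 1). HBEGF rose by 0.82 ± 0.13, and the neuregulin NRG2 by 0.25 ± 0.09 (adjusted p = 0.0398). The NRG2 call was lost after median centring and with the replicate number as a block. It was also lost with the 2 groups alone and without BB2-162 replicate 2, BB2-162 replicate 3, vehicle replicate 1 or vehicle replicate 2. TGFA, which encodes TGF-α, read 7.56, 7.23 and 7.37 against 8.83, 8.85 and 8.70 and fell by 1.40 ± 0.11. Of 16 MAP kinase phosphatases and Sprouty proteins, feedback inhibitors of receptor signalling, 10 rose and 3 fell (11 and 3 without replicate 1). DUSP10, which acts on JNK and p38, read 9.07, 8.37 and 8.69 against 6.79, 7.11 and 6.97 and rose by 1.75 ± 0.15, and SPRY1 rose by 0.83 ± 0.10. SPRED2, an inhibitor of RAF activation, fell by 1.01 ± 0.14.

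Integrins and laminins fell without exception among the genes called. Of 17 tested, 10 were called lower and 0 higher (11 and 0 without replicate 1), 7 of them at least 2-fold, with a median difference of -0.72 (-0.90 without replicate 1) against 0.06 for all genes. The limma count of 0 higher held after median centring and after quantile normalization. ITGB4, the hemidesmosome integrin β4, read 9.70, 9.07 and 9.38 against 11.40, 11.71 and 11.44 and fell by 2.13 ± 0.14 (4.39-fold; adjusted p = 6.86e-09). Its partner ITGA6 read 6.52, 5.81 and 6.08 against 8.15, 8.40 and 8.08 and fell by 2.07 ± 0.16 (4.21-fold). ITGA2 and ITGAV fell by 1.58 ± 0.16 and 1.47 ± 0.15, and the laminin chains LAMB3 and LAMB2 by 1.28 ± 0.11 and 1.01 ± 0.11. For all of these no BB2-162 array reached a vehicle array, although replicate 1 was the highest of the BB2-162 arrays in each. ITGB1, the common β1 chain, differed by -0.18 (adjusted p = 0.162).

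DOCK5, an exchange factor for RAC, read 7.42, 6.94 and 7.21 against 9.57, 9.84 and 9.48 and fell by 2.44 ± 0.16 (5.42-fold; adjusted p = 7.2e-09). TNS4, a tensin that binds integrin tails, and TSPAN14, a tetraspanin, fell by 2.12 ± 0.14 and 2.10 ± 0.13.

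In the TGF-β response list 11 of 21 were called lower and 4 higher (13 and 4 without replicate 1). THBS1, thrombospondin 1, read 7.10, 6.54 and 6.86 against 8.71, 8.96 and 8.89 and fell by 2.02 ± 0.14 (4.05-fold; adjusted p = 7.67e-09). PMEPA1 and SMAD6, which restrain SMAD signalling, fell by 1.46 ± 0.11 and 1.24 ± 0.10, and the type I receptor TGFBR1 by 1.38 ± 0.11. The inhibitors of bHLH factors split: ID1 fell by 1.03 and ID2 rose by 1.23. In the IL6 family, 12 genes gave 5 rises and 3 falls (5 and 4 without replicate 1); the rises numbered 3 without BB2-162 replicate 2 and 2 without vehicle replicate 1. The 3 that fell were the receptor chains OSMR, LIFR and IL6ST. OSMR, the oncostatin M receptor, read 7.65, 7.08 and 6.96 against 9.38, 9.78 and 9.40 and fell by 2.30 ± 0.16 (4.91-fold; adjusted p = 1.34e-08). LIFR and the shared chain IL6ST fell by 1.15 ± 0.19 and 0.58 ± 0.13. IL11 read 9.65, 9.72 and 9.44 against 8.70, 8.55 and 8.53 and rose by 1.01 ± 0.11.

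Immediate-early transcription factors, normally induced within minutes of a stimulus, were higher at the end of the exposure. Of 25 tested, 22 were called higher and 0 lower, with a median of 0.73 and 8 at least 2-fold (20 and 0 without replicate 1; 19 and 0 after median centring). NR4A2, an orphan nuclear receptor, read 11.55, 10.83 and 11.20 under BB2-162 and 8.21, 8.61 and 8.23 under vehicle, a rise of 2.84 ± 0.17 (7.18-fold; adjusted p = 2.28e-09). Its relative NR4A1 read 11.42, 11.27 and 11.53 against 9.04, 8.90 and 9.28 and rose by 2.34 ± 0.13 (5.05-fold). FOSB, a partner of JUN in AP-1, read 8.98, 9.04 and 9.75 against 7.08, 6.94 and 7.43 and rose by 2.10 ± 0.18. In these 3 genes every BB2-162 array lay more than 1 log2 unit above every vehicle array, and the rises without replicate 1 were 2.67, 2.33 and 2.24. KLF10, JUNB, ATF3, EGR1 and FOS rose by 1.89 ± 0.11, 1.31 ± 0.11, 1.41 ± 0.18, 1.20 ± 0.20 and 1.19 ± 0.16. KLF2, KLF4 and FOSL2 differed by -0.09, -0.09 and -0.13 and were not called. Outside the list, the Ras-like GTPase GEM read 10.50, 10.21 and 10.34 against 7.75, 7.48 and 7.68, a rise of 2.71 ± 0.11 with the lowest adjusted p of the genes named here in the comparison with vehicle (2.27e-11). RGS2, which limits G protein signalling, and the clock gene PER1 rose by 2.04 ± 0.12 and 1.89 ± 0.13.

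Chemokines that attract neutrophils rose together. Of 12 chemokine genes 8 were called higher and 0 lower (9 and 0 without replicate 1), with a median difference of 0.61. To show what lies upstream of the largest chemokine and heat shock rises and of a mitotic gene that fell, 250 bases before the start of 4 genes are printed from RefSeq on GRCh38.p14. Of the 16005 tested genes 12502 (78.1%) had a promoter entry. In the chemokine sequences the capitals mark GGNNNTTCC, an NF-κB-type motif, searched on both strands.
CXCL1: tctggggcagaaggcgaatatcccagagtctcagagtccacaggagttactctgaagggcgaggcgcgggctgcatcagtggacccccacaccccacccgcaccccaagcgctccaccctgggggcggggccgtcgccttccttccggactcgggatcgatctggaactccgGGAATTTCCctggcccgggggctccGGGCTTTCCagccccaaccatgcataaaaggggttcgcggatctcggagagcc
CXCL2: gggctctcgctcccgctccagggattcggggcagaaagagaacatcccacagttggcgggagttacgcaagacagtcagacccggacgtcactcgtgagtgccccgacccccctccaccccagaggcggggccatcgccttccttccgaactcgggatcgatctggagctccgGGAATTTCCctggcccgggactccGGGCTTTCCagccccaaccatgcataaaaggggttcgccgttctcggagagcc
CXCL1 covers chr4:73869143-73869392 on the plus strand, with matches GGAATTTCC at -78 to -70 and GGGCTTTCC at -53 to -45 from the gene start. CXCL2 covers chr4:74099196-74099445 on the minus strand, with GGAATTTCC at -77 to -69 and GGGCTTTCC at -53 to -45. The motif was found in 7 of 8 chemokine promoters (87.5%), in 8 of 20 promoters of the NF-κB list (40%) and in 19.3% of all promoters. Among all genes called higher the share was 19.5%, and among those called higher at least 2-fold 27.3%. A match describes letters in this window and shows no binding.

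CXCL2 read 9.75, 10.29 and 10.30 under BB2-162 and 7.63, 7.38 and 7.66 under vehicle. It rose by 2.55 ± 0.14 (5.86-fold; adjusted p = 1.18e-09; 2.73 without replicate 1). CXCL1 read 11.35, 11.68 and 11.77 against 9.39, 9.29 and 9.60 and rose by 2.17 ± 0.13 (4.50-fold; adjusted p = 1.51e-09; 2.30 without replicate 1). In both genes replicate 1 was the lowest BB2-162 array and still lay more than 1 log2 unit above every vehicle array. CXCL3, CXCL5, CXCL8 and CCL20 rose by 1.12 ± 0.15, 0.86 ± 0.09, 0.70 ± 0.15 and 0.87 ± 0.11. Of 22 further NF-κB subunits, inhibitors and targets 13 rose and 2 fell (12 and 3 without replicate 1; 1 fell without BB2-162 replicate 2, vehicle replicate 1 or vehicle replicate 3). NFKBIZ, a nuclear IκB protein, read 9.07, 8.74 and 9.01 against 7.44, 7.39 and 7.57 and rose by 1.47 ± 0.11. The feedback inhibitors TNFAIP3 (A20), ZC3H12A (regnase-1) and NFKBIA (IκBα) rose by 1.46 ± 0.18, 1.12 ± 0.10 and 1.05 ± 0.09. RELB, a subunit of the alternative pathway, fell by 0.57. The siderophore-binding protein LCN2 rose by 1.41 ± 0.14, and the prostaglandin synthase PTGS2 by 0.86 ± 0.14.

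Several inducible heat shock proteins were among the largest rises. Of 23 heat shock proteins and cytosolic chaperones 11 were called higher and 1 lower (11 and 3 without replicate 1). In the HSPA6 promoter the capitals mark GAANNTTC and, in the other register, TTCNNGAA, both palindromes of the heat shock element.
HSPA6: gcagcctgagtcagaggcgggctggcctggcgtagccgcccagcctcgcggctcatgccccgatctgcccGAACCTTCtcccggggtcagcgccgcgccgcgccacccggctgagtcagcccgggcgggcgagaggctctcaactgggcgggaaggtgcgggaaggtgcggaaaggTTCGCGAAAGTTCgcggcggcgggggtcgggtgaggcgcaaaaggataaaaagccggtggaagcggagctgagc
It covers chr1:161524290-161524539 on the plus strand of GRCh38.p14. The matches are GAACCTTC at -180 to -173, TTCGCGAA at -74 to -67 and GAAAGTTC at -69 to -62; the last pair share letters. GAANNTTC was found in 8 of 20 promoters of the heat shock list (40%) and in 4.21% of all promoters. Among all genes called higher the share was 4.74%. Among those called higher at least 2-fold it was 1 of 88 (1.14%), HSPA6 alone.

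HSPA6, a strictly inducible HSP70, read 8.87, 8.77 and 8.89 under BB2-162 and 5.97, 5.74 and 6.01 under vehicle, near its normoxic mean of 5.79. It rose by 2.93 ± 0.15 (7.65-fold; adjusted p = 5.12e-10). Its probe set may also read the near-identical copy HSPA7. CRYAB, αB-crystallin, read 10.34, 10.18 and 10.18 against 7.80, 8.29 and 7.26 and rose by 2.45 ± 0.21 (5.46-fold; adjusted p = 8.94e-08). The BB2-162 arrays of these genes lay close together and far above the vehicle arrays. DNAJB1 and HSPH1, co-factors of HSP70, rose by 1.26 ± 0.12 and 1.22 ± 0.14, and HSP90AA1 by 0.83 ± 0.12. DNAJB4 was not above the dim-signal limit under vehicle, and its rise was at least 1.93-fold. HSPA8, the constitutive HSP70, was the member that fell, by 0.55. Of 21 genes of the endoplasmic reticulum stress list 7 were called lower and 2 higher (10 and 0 without replicate 1; 0 or 1 higher without BB2-162 replicate 2, BB2-162 replicate 3, vehicle replicate 1 or vehicle replicate 2); SEL1L, of the degradation pathway there, fell by 1.05. Of 8 TRiC subunits 5 were called lower (6 without replicate 1), but only 2 without BB2-162 replicate 3 or vehicle replicate 1, and after quantile normalization 2 were lower and 1 higher. In the ATF4 list 11 of 31 rose and 5 fell (11 and 6 without replicate 1). PPP1R15A (GADD34), the phosphatase subunit that reverses eIF2α phosphorylation, read 12.28, 12.22 and 12.45 against 10.81, 10.25 and 11.02 and rose by 1.62 ± 0.14. ATF4 itself rose by 0.83 ± 0.15, while its target SLC38A2, an amino acid transporter, fell by 1.31 ± 0.13.

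Splicing factors of the SR and hnRNP families rose in 14 of 29 and fell in 2 (12 and 2 without replicate 1; 10 and 2 after median centring; 17 and 2 after quantile normalization). SRSF1 read 10.53, 10.20 and 10.48 against 9.24, 9.32 and 9.11 and rose by 1.18 ± 0.10 (2.27-fold; adjusted p = 1.52e-07). SRSF2, TRA2A and HNRNPL, all regulators of exon choice, rose by 1.13 ± 0.10, 1.08 ± 0.13 and 1.23 ± 0.12. CLK4, a kinase of SR proteins, and HNRNPK fell by 0.70 and 0.37. An array that sums a gene's probes does not show which spliced forms were present.

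Genes of mitosis and its control had the largest share of falls among the lists shown. Of 33 tested, 21 were called lower and 0 higher, with a median of -0.46 (24 and 0 without replicate 1, median -0.53); median centring gave 22 lower and quantile normalization 21, with 0 higher in each. Their promoters are known for CCAAT boxes bound by NF-Y, and the letters CCAAT, on either strand, were found in 20 of 26 of them (76.9%) and in 34% of all promoters. Among all genes called lower the share was 33.7%, and among all called higher 34.7%. For changes of at least 2-fold these shares were 32.6% and 46.6%. The promoter of PLK1 is shown with CCAAT in capitals.
PLK1: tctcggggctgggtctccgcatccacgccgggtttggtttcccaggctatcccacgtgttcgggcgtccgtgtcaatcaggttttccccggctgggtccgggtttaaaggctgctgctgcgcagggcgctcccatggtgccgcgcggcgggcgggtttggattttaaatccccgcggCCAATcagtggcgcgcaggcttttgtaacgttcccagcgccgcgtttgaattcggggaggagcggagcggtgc
It covers chr16:23678639-23678888 on the plus strand of GRCh38.p14, and the match shown lies at -73 to -69. PLK1, the polo-like kinase of mitotic entry, read 7.36, 7.36 and 7.47 under BB2-162 and 8.75, 8.87 and 8.57 under vehicle, with a normoxic mean of 10.41. It fell by 1.33 ± 0.10 (2.52-fold; adjusted p = 4.23e-08). TOP2A, topoisomerase IIα, read 7.27, 6.86 and 6.72 against 8.45, 8.82 and 8.02 and fell by 1.48 ± 0.17. The cyclin CCNA2 and the checkpoint kinase BUB1 fell by 1.08 ± 0.13 and 0.89 ± 0.14. CDK1 was not above the dim-signal limit under BB2-162, and its fall was at least 1.35-fold.

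In the DNA replication list 13 of 37 were called lower and 4 higher (12 and 3 without replicate 1; 2 higher without BB2-162 replicate 3 or vehicle replicate 2). TYMS, thymidylate synthase, read 7.90, 7.57 and 7.42 against 9.06, 8.94 and 8.93 and fell by 1.35 ± 0.11. RRM2, the small subunit of ribonucleotide reductase, and RFC4 of the clamp loader fell by 1.20 ± 0.15 and 1.07 ± 0.15. DDB2, a sensor of ultraviolet damage, fell by 1.50 ± 0.11 and the damage kinase ATM by 1.13 ± 0.17.

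Of 36 core and linker histone genes 13 were called higher and 4 lower (16 and 2 without replicate 1; 2 lower without BB2-162 replicate 3, vehicle replicate 1 or vehicle replicate 2); copies of these genes are near-identical, so the probe sets may not separate them. H2BC14 read 9.12, 9.39 and 9.23 against 7.40, 7.44 and 7.52 and rose by 1.79 ± 0.14, and H4C8 fell by 2.04 ± 0.19. Of 35 acetyltransferases, methyltransferases and remodellers 10 were called lower and 2 higher (15 and 1 without replicate 1; 14 and 0 after median centring; 10 and 3 after quantile normalization); the rises were 1 without BB2-162 replicate 3 and 0 without vehicle replicate 1. CHD9, KAT2B (PCAF) and BPTF fell by 1.58 ± 0.17, 1.26 ± 0.16 and 1.06 ± 0.19. Of 17 Jumonji demethylases 3 were called higher and 3 lower (2 and 7 without replicate 1; 1 lower without BB2-162 replicate 2 or vehicle replicate 2). KDM6B, an H3K27 demethylase among them, read 10.05, 9.73 and 10.29 against 8.67, 8.74 and 9.05 and rose by 1.20 ± 0.14.

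Genes of iron, copper and lipid metabolism fell and rose. CP, ceruloplasmin, a copper-bearing ferroxidase, read 6.48, 6.05 and 6.14 against 8.63, 9.31 and 8.40 and fell by 2.56 ± 0.18 (5.89-fold; adjusted p = 1.23e-08). STEAP3, the ferrireductase of the transferrin cycle, fell by 1.88 ± 0.10, and NPC1, which exports cholesterol from lysosomes, by 1.68 ± 0.15. Of 19 genes of cholesterol synthesis and uptake 8 were called higher and 3 lower (7 and 5 without replicate 1; 6 and 4 after median centring). DHCR7, the last enzyme of cholesterol synthesis, read 9.94, 9.58 and 9.57 against 8.80, 8.38 and 8.55 and rose by 1.12 ± 0.12, while SQLE, squalene epoxidase, fell by 0.59 ± 0.14. In the tricarboxylic acid cycle list 6 of 16 were called lower and 2 higher (8 and 2 without replicate 1; 1 higher without BB2-162 replicate 2); pyruvate carboxylase (PC) and IDH2 fell by 1.38 ± 0.13 and 1.03 ± 0.10. SPP1, osteopontin, a secreted phosphoprotein, read 10.53, 10.41 and 10.31 against 8.15, 8.26 and 7.88 and rose by 2.32 ± 0.11 (5.0-fold), with a normoxic mean of 12.07.

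Small non-coding RNAs were where replicate 1 stood furthest from replicates 2 and 3. The median of replicate 1 minus the mean of the others was -0.75 over C/D box small nucleolar RNAs, -0.70 over H/ACA box ones and -0.94 over spliceosomal, Cajal body and vault RNAs, against 0 for all genes. Called rises numbered 16 of 84, 11 of 54 and 8 of 35 in these lists, with 0 called lower, and became 27, 19 and 13 without replicate 1. The count of H/ACA rises was 6 when BB2-162 replicate 2, BB2-162 replicate 3 or vehicle replicate 2 was left out, and that of the spliceosomal list was 4 without BB2-162 replicate 2. VTRNA1-1, a vault RNA, read 7.40, 9.71 and 8.62 against 6.08, 5.11 and 5.49 and rose by 3.01 ± 0.47 (adjusted p = 8.33e-05; 3.60 without replicate 1). SNORD75 read 9.93, 9.86 and 9.57 against 7.81, 7.38 and 7.52 and rose by 2.22 ± 0.16, so here replicate 1 did not stand apart. SNORD61 read 7.24, 10.39 and 9.43 against 9.52, 8.05 and 9.52; the arrays of both groups overlapped and the difference was -0.01 (adjusted p = 0.994). It had the largest gap of replicate 1 below the others (-2.67). Among genes where replicate 1 was higher, METTL15 had the largest gap (1.69) and read 7.35, 5.96 and 5.35 against 5.90, 6.81 and 5.53. SLCO1B3, an organic anion transporter, read 8.92, 7.98 and 7.29 against 9.61, 10.10 and 9.09 and fell by 1.54 ± 0.29, and fell by 1.97 without replicate 1. A gap of at least 1 log2 unit was present in 72 genes with replicate 1 lower and 32 with it higher.

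**Figure D4:**
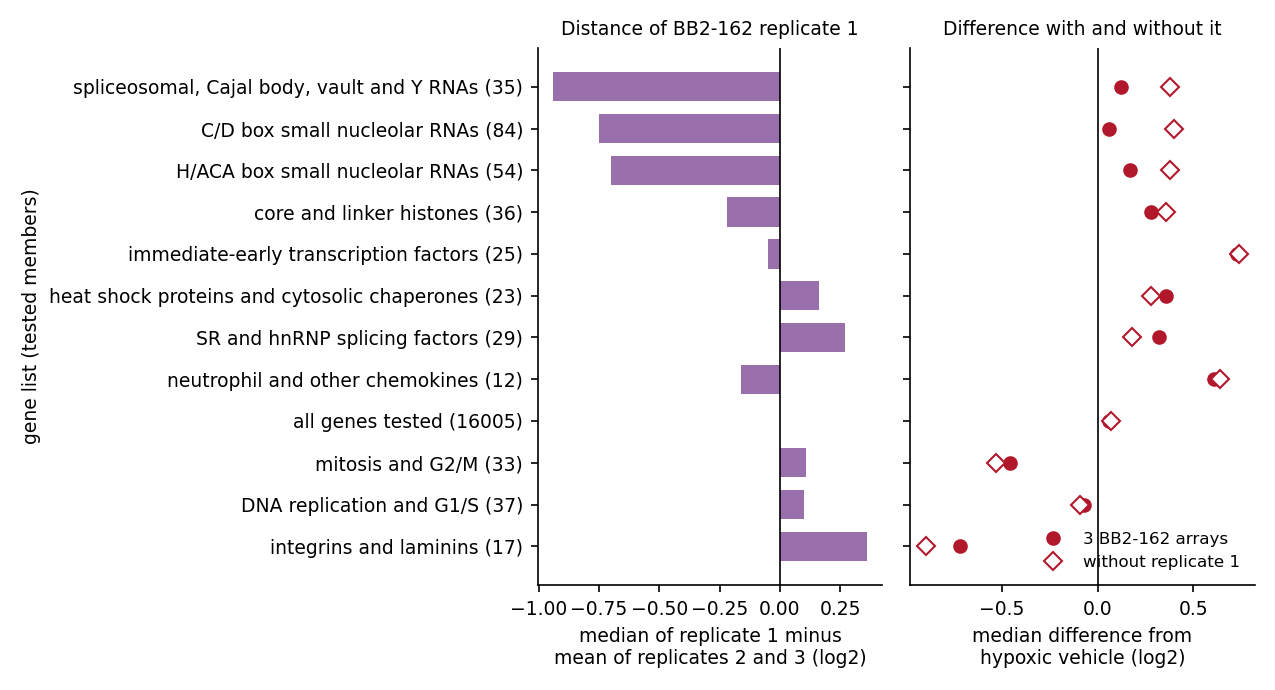
Left, the median over each gene list of BB2-162 replicate 1 minus the mean of replicates 2 and 3 (log2 units); right, the list's median log2 difference from the hypoxic vehicle with all 3 BB2-162 arrays (filled) and without replicate 1 (open). The small RNA lists lie furthest to the left (-0.94, -0.75 and -0.70) and the integrins and laminins furthest to the right (0.36), and no list median shown changes sign.

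Of 102 microRNA host or precursor genes 33 were called higher and 5 lower (43 and 6 without replicate 1), and the rises fell to between 20 and 21 when BB2-162 replicate 2, BB2-162 replicate 3 or vehicle replicate 2 was left out. MIR15A and MIR15B went in opposite directions although their main products have the same seed, which sets target choice. The mature sequences are given from RefSeq, with the seed, bases 2 to 8, in capitals.
hsa-miR-15a-5p: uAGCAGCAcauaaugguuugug
hsa-miR-15b-5p: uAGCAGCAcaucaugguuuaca
They map to chr13:50049167-50049188 on the minus strand and chr3:160404607-160404628 on the plus strand of GRCh38.p14. MIR15A read 5.51, 6.01 and 5.89 against 7.04, 7.14 and 7.30 and fell by 1.36 ± 0.15 (adjusted p = 2.15e-06). MIR15B read 5.72, 5.92 and 6.16 against 4.94, 4.59 and 4.74 and rose by 1.18 ± 0.18 (adjusted p = 6.68e-05). Its vehicle values lay near the 25th percentiles of those arrays (4.71, 4.67 and 4.74), the level used as the dim-signal limit. Neither gene's arrays overlapped between the groups. These probe sets were designed on whole transcripts, and levels of the mature forms were not measured. MIR31HG, the host transcript of miR-31, read 7.65, 7.55 and 7.42 against 9.17, 9.53 and 9.16 and fell by 1.75 ± 0.12.

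Markers of the line and of other cell types were compared with the same fit. Of 10 tested markers of lung epithelial cell lines 1 was called higher and 4 lower, with and without replicate 1. The falls numbered 2 without BB2-162 replicate 2 or vehicle replicate 2 and 1 without BB2-162 replicate 3. KRT8, an epithelial keratin and the brightest member tested, had means of 12.88 under BB2-162 and 12.73 under vehicle. EPCAM, the dimmest, had means of 5.53 and 5.41. Of 9 tested markers of alveolar type II cells 2 were called higher and 2 lower, with and without replicate 1, with a median of 0.18; the rises were 0 without BB2-162 replicate 3 or vehicle replicate 1 and 1 without replicate 2 of either group. The surfactant lipid transporter ABCA3 fell by 1.08 ± 0.11. The summed intensity of the tested alveolar type II markers was 1776 to 2015 under BB2-162 and 2475 to 2698 under vehicle. Most of this sum came from their brightest member, LPCAT1, which had means of 10.06 and 10.75, so the sum mainly reflects that gene. Of 5 tested fibroblast markers 2 were called higher and 0 lower (4 and 0 without replicate 1), and their summed intensity was 511.5 to 600 under BB2-162 and 440.7 to 513.5 under vehicle. Of 7 tested endothelial markers 2 were called higher and 0 lower (5 and 0 without replicate 1), with sums of 415.4 to 536.5 against 362.3 to 404.8. Of 5 tested leukocyte markers 2 were called higher and 1 lower (3 and 1 without replicate 1), with sums of 2264 to 2438 against 2539 to 2801, most of it from CD68. Leaving out vehicle replicate 2 left 0 rises in each of the 3 lists. Without BB2-162 replicate 2, BB2-162 replicate 3 or vehicle replicate 1 there were 0 rises among the fibroblast markers, 0 or 1 among the endothelial ones and 1 among the leukocyte ones; without vehicle replicate 3 the fibroblast count was 1. Medians over these 3 lists were 0.25, 0.27 and 0.24, and the 4 dimmest of the 10 classes of genes had medians of 0.14 to 0.16; their part in the results above was not tested.

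BB2-162 was then set against the other compounds at the same dose and times, in 2 comparisons. Against BB2-125, 4182 genes (26.1%) were called, 1510 higher (9.43%) and 2672 lower (16.7%), and 305 (1.91%) at least 2-fold; without BB2-162 replicate 3 the count was 2645. Against BB2-282, 5734 genes (35.8%) were called, 2489 higher (15.6%) and 3245 lower (20.3%); 767 (4.79%) were called at least 2-fold, 554 of them lower (3.46%), and the arrays of both groups did not overlap in 7183 genes (44.9%). These comparisons share the BB2-162 arrays with each other and with the comparison with vehicle, so their gene lists are not set against each other. EGFR differed from its BB2-125 level by -0.81 (adjusted p = 0.0021, 95% interval from -1.18 to -0.45) and from its BB2-282 level by -3.50 (adjusted p = 1.22e-10). For LOX the difference from BB2-125 was -0.36 with an interval from -0.68 to -0.03 (adjusted p = 0.0965), and from BB2-282 it was -3.82 (adjusted p = 2.31e-11). For CREBBP, EP300 and MET the differences from BB2-125 were 0.05 (interval -0.30 to 0.40), 0.23 (-0.16 to 0.62) and 0.25 (-0.16 to 0.65), and none was called, whereas all 3 were lower than under BB2-282, with differences of -1.36, -1.07 and -1.21. VEGFA and CXCR4 were higher under BB2-162 than under BB2-125, by 0.82 and 1.09 (adjusted p = 3.53e-05 and 1.51e-05), and differed from BB2-282 by -0.19 (interval -0.42 to 0.04) and -0.07 (interval -0.35 to 0.21).

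**Figure D5:**
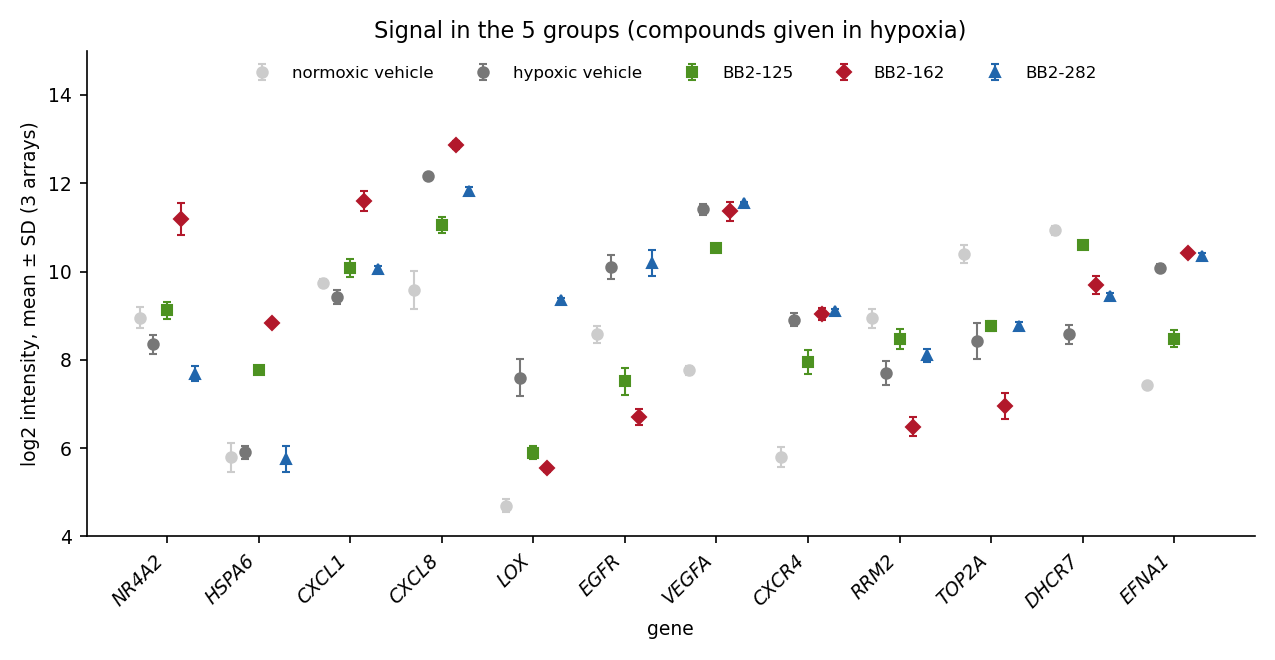
Mean log2 intensity of 12 genes in the 5 groups, with bars of 1 SD over 3 arrays. NR4A2, HSPA6, CXCL1 and CXCL8 are highest under BB2-162 and EGFR, RRM2 and TOP2A lowest, while LOX lies close to its BB2-125 level and VEGFA and CXCR4 close to their hypoxic vehicle levels.

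Several stress and inflammatory genes were higher under BB2-162 than under either other compound. NR4A2 was 2.08 higher than under BB2-125 and 3.51 higher than under BB2-282 (adjusted p = 1.94e-07 and 1.09e-10), and HSPA6 was 1.07 and 3.08 higher. CXCL8 was 1.81 and 1.04 higher, and CXCL1 1.52 and 1.54 higher. By list, immediate-early factors were called higher than under BB2-125 in 17 of 25 with 0 lower (1 at an unadjusted p under 0.05), and than under BB2-282 in 19 with 1 lower. The heat shock list as a whole did not share this pattern: 3 of 23 were higher and 9 lower than under BB2-125, while 15 were higher and 1 lower than under BB2-282. Nor did the NF-κB list: by limma 13 of 22 were higher and 0 lower than under BB2-125 (0 lower at an unadjusted p under 0.05). Against BB2-282, 7 of its members were higher and 9 lower.

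Cell cycle and lipid genes gave a second set of differences between the compounds. Mitotic genes were lower under BB2-162 than under BB2-125 in 29 of 33 with 0 higher, and than under BB2-282 in 25 with 1 higher, with medians of -0.95 and -0.62. PLK1 differed by -1.39 and -1.29 and RRM2 by -1.98 and -1.61, all called. Cholesterol genes were lower than under BB2-125 in 14 of 19 with 0 higher, with a DHCR7 difference of -0.90. Histone genes were lower than under BB2-125 in 18 of 36 with 0 higher. For these limma counts of 0, and for those of the integrins against BB2-282, the unadjusted count was 0 too. Against BB2-282 the histone genes went the other way, with 20 higher and 1 lower. The cholesterol genes gave 6 lower and 0 higher against BB2-282 by limma (1 higher at an unadjusted p under 0.05). Integrins and laminins were lower than under BB2-282 in 14 of 17 with 0 higher, with an ITGB4 difference of -2.26; against BB2-125 there were 4 lower and 1 higher, ITGB4 differed by -0.47, and ITGA6 by 0.08 (interval -0.25 to 0.41). The largest rises over BB2-125 were in CEACAM5 (2.32), an adhesion molecule, and CST1 (2.15), a cystatin, and the largest falls among genes above the dim-signal limit in UPK1B (-2.10), C5 (-2.07) and RRM2. Over BB2-282 the leading rises were NR4A2, SNORD75 (3.50) and CST1 (3.15), and the leading falls, leaving out RNU5D-1, which was not above the dim-signal limit under BB2-162, were LOX, SNORA65 (-3.81) and EGFR.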

How the data were processed

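Total RNA from each well was labelled with biotin and hybridised to an Affymetrix whole-transcript array, 15 arrays in 5 groups of 3. The authors deposited linear intensity values of 28869 probe sets, made with RMA per the submitters' processing notes; the software, its version and the genome build are not given in the sources used here. Per-sample columns left unused numbered 0.

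Intensities were turned into log2. GEO's platform annotation gave 19310 probe sets 1 gene symbol, 1752 several and 7807 none; symbols were updated through Entrez IDs (19279 found, 31 not). The 18377 genes were represented by the probe set of highest mean (685 genes had several). Genes above an array's own 25th percentile on fewer than 3 arrays were removed (2372), and a group mean at or below that level is called below the dim-signal limit; folds of such genes are bounds. limma 3.58.1 (R 4.3.3) fitted the means of all 5 groups, with 10 residual and 7.96 prior degrees of freedom, and gave moderated tests adjusted by Benjamini-Hochberg over 16005 genes. Values after ± are standard errors of log2 differences from this fit, in which all groups share a spread per gene. Intervals are 95% from the same fit. The number of arrays limits the precision. The fit was tested on simulated data with independent noise of equal spread in all groups. Unlike the arrays here, those data held no outlying array and no level-dependent shift.

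Members and the 66 gene lists were chosen with earlier results of these data known. The result of 1 list is not reported here. Named by rule were the 20 largest called, non-overlapping rises and falls, up to 6 members of lowest p per list, 13 genes of the HIF pathway and its targets, 10 genes per direction with the largest gap of BB2-162 replicate 1, and 5 per direction against each other compound; only some are printed. FOS, EGR1, ATF3, KLF2, KLF4, FOSL2, RELB, HSPA8, HSP90AA1, ATF4, ID1, ID2, CLK4, HNRNPK, ITGB1, KRT8, EPCAM and PLOD1 fall outside it or were picked after their values were seen. Alternatives were other normalizations, filters, array weights, prior settings, sample sets and each replicate left out; the compared groups without BB2-162 replicate 1, and centring on named probe sets, were added after seeing the data. Promoter and microRNA sequences are from RefSeq (GRCh38.p14), 250 bases upstream, matched by symbol or gene ID.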

Additional observations from a re-analysis of the deposited data

How the results depend on the processing

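The count of 5780 genes called against the hypoxic vehicle became 3494 when the 2 groups were fitted alone, without the other 9 arrays, and 3672 in that fit with the replicate number as a block. With all 15 arrays and the replicate block it was 5625. Same-numbered arrays correlated at 0.031, -0.324 and 0.58 in their deviations from the group means. With 3 arrays per group these values cannot decide whether the numbers pair the samples. Leaving out each array in turn gave 4067 (without vehicle replicate 2) to 7698 genes (without BB2-162 replicate 1); the 2 groups alone without BB2-162 replicate 1 gave 5945. Against BB2-125 the 4182 genes became 2582 with the 2 groups alone, 1849 with the replicate block added to that, 4024 with the block and all arrays, and 2645 (without BB2-162 replicate 3) to 6208 (without BB2-162 replicate 1) with arrays left out. Against BB2-282 the 5734 genes were 4562, 4057 and 5562 in the same fits and 4444 to 7025 with arrays left out. Counts under the other alternatives (5142 to 7361 against vehicle) stayed within 1.5 times. The causes were not tested. RPL5, a ribosomal protein gene at -0.30 with its brightest probe set, was at 0.10 (adjusted p = 0.468) with its dimmest.

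Without BB2-162 replicate 1, 7 named genes lost their call, among them VHL, ETV5, UBB, KDM5C, BCL2L11, PLAU and PSMB4, and 21 gained one. Median centring ended 20 named calls and quantile normalization 16. Of 425 named genes 373 kept direction and side of the threshold with the 2 groups alone. Limits are the 3 arrays per group, the level-dependent shift, the lack of BB2-162 in normoxia among the arrays analysed here, and a single dose and time.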

Other observations

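Further gene groups are given beside the shares of all genes called (15.7% higher, 20.4% lower), with counts without BB2-162 replicate 1 in parentheses. Of 27 cytosolic ribosomal protein genes 1 was called higher and 3 lower (1 and 3), although 0 or 1 were lower when BB2-162 replicate 2, BB2-162 replicate 3, vehicle replicate 1 or vehicle replicate 2 was left out, and of 34 mitochondrial ones 3 and 5 (3 and 9). Interferon-stimulated genes gave 3 higher and 3 lower of 25 (6 and 4), with IRF1, the transcription factor, rising by 1.09 ± 0.13. Targets of p53 gave 6 higher and 6 lower of 26 (4 and 7); the pro-apoptotic gene PMAIP1 rose by 0.89 ± 0.11. Targets of NRF2 gave 6 higher and 7 lower of 25 (6 and 10), and 0 higher and 19 lower against BB2-125 by limma, with 0 higher at an unadjusted p under 0.05. Proteasome subunits gave 7 higher and 1 lower of 28 (6 and 3), led by the ATPase PSMC4 with a rise of 1.0 ± 0.13; against BB2-125 they gave 0 higher and 14 lower and against BB2-282 15 higher and 0 lower by limma (1 higher and 3 lower at an unadjusted p under 0.05 in the directions without calls). Zinc finger genes with the root symbol ZNF gave 45 higher and 65 lower of 374 (56 and 78), with 26 and 29 higher without vehicle replicates 1 and 2.

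Other single genes stood out. The fibrinogen chains FGA and FGB fell by 1.23 ± 0.12 and 1.01 ± 0.17, and FGB lay 2.09 above its BB2-282 level. UACA, an ankyrin and coiled-coil protein, read 7.85, 7.39 and 7.93 under BB2-162 and 9.98, 10.16 and 9.92 under vehicle and fell by 2.30 ± 0.13. The long non-coding transcript LINC00472 rose by 1.87 ± 0.13. MYC rose by 0.83 ± 0.10. Of the 11 housekeeping genes tested 4 were called lower and 0 higher by limma (6 and 0 without replicate 1), with a median of -0.25 and 0 higher at an unadjusted p under 0.05.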
